A study of Rattus norvegicus with 23 samples.

Results

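The genes described here are 8 that mark microglia and macrophages (Csf1r, Cd14, P2ry12, Cd93, Lyz2, Cd68, Laptm5 and Cd74), chosen by name from the authors' tables and followed by identifier in the count files. All 8 were among the 15219 genes listed in every file. Reads per gene had been counted in 23 rat RNA-seq libraries of 6 groups. Of these, 4 groups are CG4 cells, an immortalised line that came from rat brain oligodendroglia, and the others are wild-type primary rat oligodendroglia.

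The primary cells had been raised in mixed glial cultures and freed by shake-off. They were taken after 3 days in SATO medium with high T3/T4 and CNTF (differentiating, n = 4) or in basal medium with bFGF and PDGF-AA (proliferating, n = 4). CG4 cells were taken after the same 3 days of differentiation carrying an expression vector for myc-tagged Zfp488 (n = 4), one for T7-tagged Nkx2.2 (n = 4), or the GFP-only vector as control (n = 4). Every vector had the pCAG promoter and IRES-EGFP. Wild-type CG4 cells with no vector were taken under the proliferating conditions (n = 3). They had been read as pairs of 100 bases and all other libraries as pairs of 150 bases. In every comparison with proliferating CG4 cells, read length therefore goes with the group and their effects cannot be told apart. The vector likewise goes with the group wherever CG4 controls are compared with primary or proliferating CG4 cells. Its effect cannot be told apart there either.

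Microglia are the resident macrophages of the brain. Their survival depends on the receptor encoded by Csf1r, which binds the growth factors Csf1 and Il34. Phagocytes of this lineage carry receptors for bacterial products and nucleotides, digest what they take up in lysosomes, and can present antigen on MHC class II. The transcription factor PU.1, the product of Spi1, is known to drive many of these genes from sites with the core GAGGAA.

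In short, all 8 genes were highest on average in proliferating primary cells. All 8 fell in differentiating primary cells, where 43.3% of all genes tested were called lower and 84.8% in either direction. Proliferating primary cells held more RNA of all 8 than proliferating CG4 cells, where 32.0% of all genes tested were called higher and 71.2% in either direction. After 3 days of differentiation, 3 of the 8 (Csf1r, Laptm5 and Lyz2) were higher in primary cells than in CG4 control cells and 1 (P2ry12) was lower. Of all genes tested in that comparison 36.2% were higher and 36.8% lower, so the share of higher genes was near that of all genes. The 8 genes summed to 46.2 to 66.0 CPM (read counts scaled to library size) in differentiating primary libraries and to 1837 to 1914 CPM in proliferating primary libraries. The sums were 9.56 to 11.2 CPM with Zfp488, 9.94 to 20.3 CPM with Nkx2.2, 9.01 to 14.6 CPM in CG4 controls and 11.0 to 22.2 CPM in proliferating CG4 cells. In bulk RNA, fewer cells of a type and less RNA per cell cannot be told apart. CPM do not correct for gene length, so levels are compared between libraries and not between genes.

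Library totals ran from 20063345 to 49206479 counts. The labelled cell type could be checked on 10 oligodendroglia markers, which summed to 89318 to 101354 CPM in differentiating and 4631 to 4956 CPM in proliferating primary libraries, 8172 to 32243 CPM in the differentiating CG4 groups and 5176 to 7377 CPM in proliferating CG4 cells. The lineage factor Olig2 averaged 1070 ± 75.4 CPM (SD, n = 4) in differentiating and 767.0 ± 22.0 CPM (SD, n = 4) in proliferating primary cells. It averaged 464.5 ± 70.9 CPM (SD, n = 4) in CG4 controls and 622.6 ± 130.4 CPM (SD, n = 3) in proliferating CG4 cells. The differentiating primary libraries formed 2 close pairs, 1 with 2 and 3 with 4, and what the pairs share was not given in the labels. Values without 1 of the pairs are given beside results that a pair moved by over 1.5 times or whose call it changed.

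**Figure D1:**
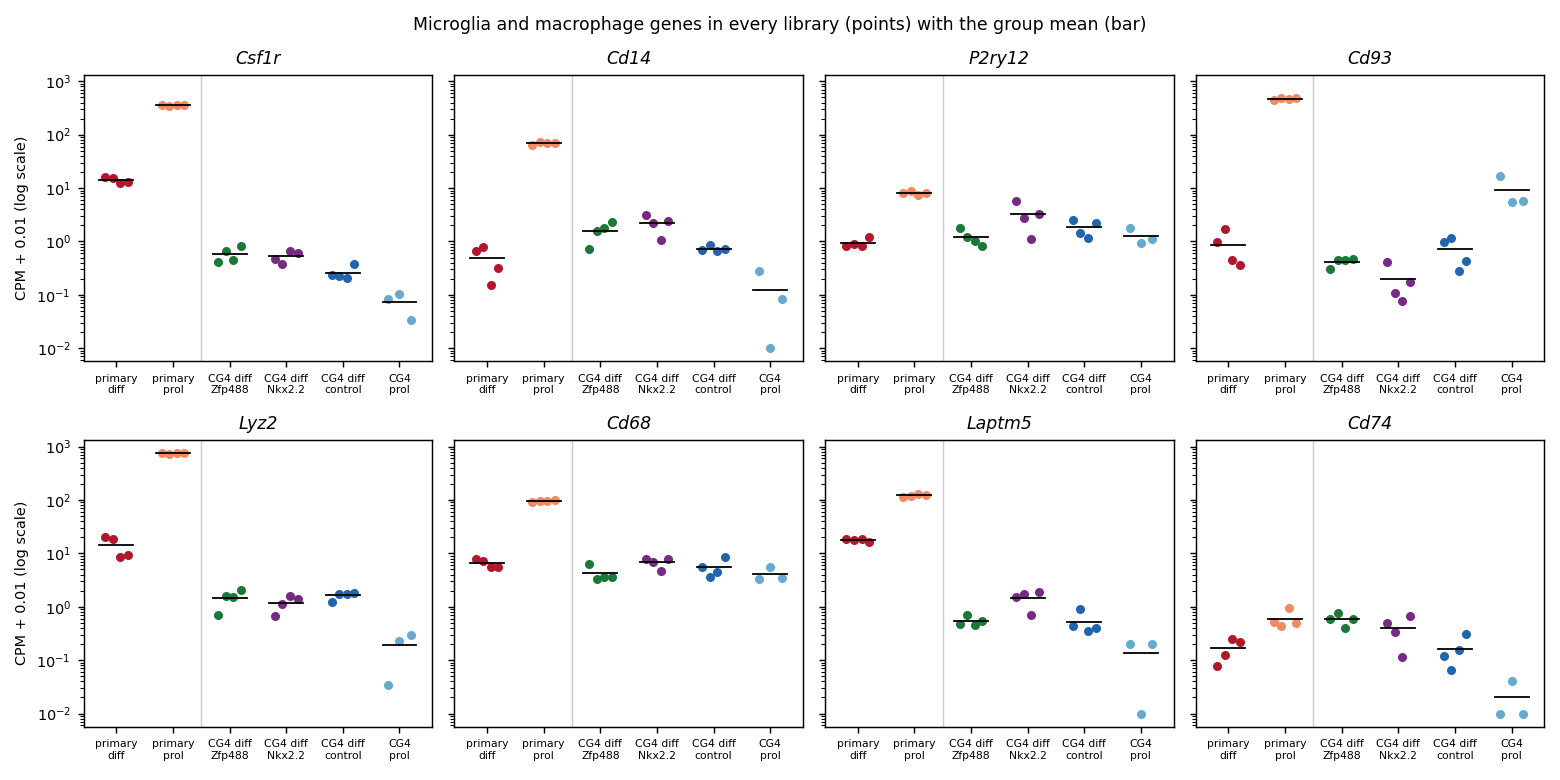
CPM + 0.01 on a log scale for each of the 8 genes in all 23 libraries (points), with the group mean (bar), for differentiating (diff) and proliferating (prol) primary cells and the CG4 groups. The proliferating primary libraries sit above every other library for each gene except Cd74, where Zfp488 and Nkx2.2 libraries overlap them.

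Promoters of Csf1r, Cd14, Lyz2 and Laptm5 are shown as a description of genes with large differences in the comparisons below. RefSeq's table for the build GRCr8 held 6 of the 8 promoters and lacked those of P2ry12 and Cd93. Each reaches from 250 bases before to 50 after the gene start and is written 5′ to 3′ on the gene's strand. Capitals mark GAGGAA or its reverse complement TTCCTC. Csf1r lies at chr18:56834129-56834428 on the plus strand, Cd14 at chr18:28611109-28611408 on the minus strand, Lyz2 at chr7:54797962-54798261 on the minus strand and Laptm5 at chr5:148371630-148371929 on the plus strand.
Csf1r: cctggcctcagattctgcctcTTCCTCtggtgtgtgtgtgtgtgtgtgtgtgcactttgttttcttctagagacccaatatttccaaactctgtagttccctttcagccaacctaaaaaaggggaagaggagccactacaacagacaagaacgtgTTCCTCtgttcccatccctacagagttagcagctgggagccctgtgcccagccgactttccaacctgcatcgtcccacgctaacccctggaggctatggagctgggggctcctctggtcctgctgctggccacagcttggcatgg
Cd14: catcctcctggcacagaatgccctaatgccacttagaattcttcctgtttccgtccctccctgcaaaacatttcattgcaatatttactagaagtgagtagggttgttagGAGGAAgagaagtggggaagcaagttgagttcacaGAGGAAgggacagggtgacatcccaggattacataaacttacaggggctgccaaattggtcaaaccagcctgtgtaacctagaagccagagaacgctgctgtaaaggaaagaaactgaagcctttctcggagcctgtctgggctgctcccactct
Lyz2: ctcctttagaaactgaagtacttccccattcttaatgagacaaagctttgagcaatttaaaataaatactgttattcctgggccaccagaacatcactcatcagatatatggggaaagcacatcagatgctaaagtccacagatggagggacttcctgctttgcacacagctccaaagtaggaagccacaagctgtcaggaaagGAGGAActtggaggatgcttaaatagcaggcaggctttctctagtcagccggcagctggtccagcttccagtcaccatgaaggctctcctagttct
Laptm5: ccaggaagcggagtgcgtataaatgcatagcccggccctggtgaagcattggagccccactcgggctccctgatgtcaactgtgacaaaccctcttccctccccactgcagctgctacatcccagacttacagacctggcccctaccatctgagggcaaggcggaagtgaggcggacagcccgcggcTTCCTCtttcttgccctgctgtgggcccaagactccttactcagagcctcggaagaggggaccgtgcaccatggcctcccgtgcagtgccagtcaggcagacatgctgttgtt
Csf1r holds 2 copies, both on the opposite strand and starting 229 and 95 bases before the gene start. Cd14 holds 2 on its own strand, at 140 and 105 bases before the start, Lyz2 1 at 46 bases before it, and Laptm5 1 on the opposite strand at 63 bases before it. GAGGAA, searched on both strands, was found in 6 of the 6 promoters, and in 27.6% of all 33469 promoters of that table. The variant GGGGAA, searched likewise, was found in 4 of the 6 and in 22.9% of all promoters. TGANTCA, the AP-1 type motif, was found in 1 of the 6 (Cd68) and in 7.33% of all promoters. The letters are a description of these windows, and no binding was measured.

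In proliferating cells, primary cultures and the cell line were furthest apart at Csf1r, the receptor for Csf1 and Il34 (ENSRNOG00000018414). Csf1r had 357.2, 346.1, 356.4 and 362.4 CPM in proliferating primary libraries, against 0.0722, 0.0939 and 0.0243 CPM in proliferating CG4 libraries. The CG4 values rest on 3, 3 and 1 reads. The groups were far from overlapping, and the log2 fold change was 12.44 ± 0.24 (SE, adjusted p = 1.22e-14, edgeR's quasi-likelihood test), the 20th highest of 13207 genes.

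Lyz2, which encodes lysozyme, the enzyme that cuts bacterial cell walls (ENSRNOG00000005825), had 754.8, 741.7, 760.8 and 762.9 CPM in proliferating primary libraries, against 0.0241, 0.219 and 0.291 CPM in proliferating CG4 libraries. Its log2 fold change was 12.07 ± 0.50 (SE, adjusted p = 2.92e-11). It was 11.48 without CG4 library 1 and 12.70 without CG4 library 3, so the size of this difference rests on a handful of reads in CG4 cells. RefSeq gives Lyz2 as a synonym of a second gene, Lyc2. Reads of such near-copies can be split between genes, and Lyz2 levels are therefore uncertain.

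Cd14, the co-receptor for bacterial lipopolysaccharide (ENSRNOG00000017819), had 65.0, 74.2, 70.1 and 69.4 CPM in proliferating primary libraries, against 0.265, 0 and 0.0728 CPM in proliferating CG4 libraries. No read was counted in CG4 library 2, where 3 reads would be 0.0939 CPM. The log2 fold change was 9.15 ± 0.48 (SE, adjusted p = 3.84e-10), and 10.60 without CG4 library 1. Laptm5, a lysosomal membrane protein of blood-derived cells (ENSRNOG00000011054), had 116.1, 119.7, 127.4 and 123.0 CPM in proliferating primary libraries, against 0.192, 0 and 0.194 CPM in proliferating CG4 libraries. Its log2 fold change was 9.76 ± 0.37 (SE, adjusted p = 1.02e-11).

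The other 4 genes were also higher in proliferating primary cells than in proliferating CG4 cells, by smaller factors. Cd93, a surface receptor of myeloid and endothelial cells (ENSRNOG00000024799), had 446.0, 479.4, 458.5 and 489.5 CPM in proliferating primary libraries, against 16.6, 5.41 and 5.80 CPM in proliferating CG4 libraries. The CG4 values rest on 689, 173 and 239 reads, and the log2 fold change was 5.67 ± 0.49 (SE, adjusted p = 9.79e-08), or 6.38 without CG4 library 1. Cd68, a lysosomal glycoprotein used to stain macrophages (ENSRNOG00000037563), had 90.0, 95.8, 93.7 and 98.3 CPM in proliferating primary libraries, against 3.32, 5.48 and 3.49 CPM in proliferating CG4 libraries. Its log2 fold change was 4.55 ± 0.28 (SE, adjusted p = 1.93e-09).

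P2ry12, the ADP receptor known as a marker of resting microglia (ENSRNOG00000013902), had 8.03, 8.75, 7.38 and 8.24 CPM in proliferating primary libraries, against 1.80, 0.939 and 1.09 CPM in proliferating CG4 libraries. With 2.68 ± 0.29 (SE, adjusted p = 1.21e-06) it had the smallest log2 fold change of the 8. Cd74, the chaperone of MHC class II molecules (ENSRNOG00000018735), had few reads even in primary cells, at 0.504, 0.419, 0.923 and 0.483 CPM in proliferating primary libraries, against 0, 0.0313 and 0 CPM in proliferating CG4 libraries. These are 66 reads in all against 1 read, a ratio of 63.9 with an exact 95% interval of 11.1 to 2564 that covers counting error alone. The fitted log2 fold change of 5.53 ± 0.81 (SE, adjusted p = 2.3e-05) depends on the prior count of the fit, and became 7.24 without CG4 library 2 and 6.66 in counts thinned to equal depth.

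Across the comparison of proliferating cells, 8 of 8 genes passed as higher, where 32.0% of the 13207 genes tested were called higher, 39.2% lower and 71.2% in either direction. The median log2 fold change was 7.41 over the 8 genes and -0.10 over all genes.

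Related genes, taken from lists chosen with earlier results known, gave this picture in proliferating cells. Which cells their reads come from was not tested. Names came only from the authors' tables of differentiating CG4 cells, so genes with few reads there may lack a name. Counts and medians of the lists therefore cover only genes that carried one. Of 31 further microglia and leukocyte genes, 7 carried a name in the files, and 6 of the 7 were higher in primary cells, with a median log2 fold change of 2.94 over the 7. Fcer1g, the signalling chain of Fc receptors, had a log2 fold change of 7.98 ± 0.17 (SE, adjusted p = 2.44e-14), at 98.4 ± 0.999 CPM (SD, n = 4) in proliferating primary cells and 0.395 ± 0.0908 CPM (SD, n = 3) in proliferating CG4 cells. Bin2, a membrane-bending protein of leukocytes, differed by 11.49 on that scale. It had 0 to 0.0241 CPM in proliferating CG4 libraries, where 1 read in library 1 is 0.0241 CPM, so the size of this difference is uncertain.

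Both named members of the complement and Fc receptor list, C3 and Fcgr2b, were higher in proliferating primary cells, as were 4 of 4 named Toll-like and scavenger receptor genes. The complement component C3 stood at 387.8 ± 12.2 CPM (SD, n = 4) in proliferating primary cells and 0.0991 ± 0.0693 CPM (SD, n = 3) in proliferating CG4 cells. The bacterial sensor Tlr2 had a log2 fold change of 10.11 ± 0.43 (SE, adjusted p = 3.94e-11), with only 0 to 0.12 CPM in proliferating CG4 libraries. The 6 transcription factors that could be followed, among them Maf (5.45 ± 0.19), were all higher too, and so were 7 of 7 cytokine and activation genes such as Lgals3, Spp1 and Apoe, with a median of 6.24. Apoe, the lipid carrier, stood at 3460 ± 157.7 CPM (SD, n = 4) in proliferating primary cells and 5.37 ± 1.66 CPM (SD, n = 3) in proliferating CG4 cells. Of the growth factor list, the receptor subunit Csf2ra was higher in primary cells by 4.27 ± 0.26, while the Csf1r ligand Csf1 differed by 0.46 ± 0.34 (adjusted p = 0.234). Defining genes such as Spi1, Aif1, Tyrobp, Trem2, Cx3cr1, Itgam, Ptprc and C1qa to C1qc carried no name in the files and were not analysed here.

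Markers of other cell types also moved between these groups. The 4 fibroblast and pericyte genes that could be followed summed to 126.3 to 154.3 CPM in proliferating primary libraries and to 3.73 to 8.15 CPM in proliferating CG4 libraries, with 3 of 4 called higher. For 8 astrocyte markers, 6 higher and 2 lower, the sums were 315.4 to 338.9 CPM in proliferating primary and 170.9 to 350.1 CPM in proliferating CG4 libraries, of which the defining astrocyte gene Gfap held 4.38 ± 0.256 CPM (SD, n = 4) in the primary and 0.177 ± 0.161 CPM (SD, n = 3) in the CG4 libraries. Gja1, the astrocyte gap junction gene, held 101.3 ± 4.45 CPM in the primary and 0.184 ± 0.0868 CPM in the CG4 libraries, and Sox9, a glial transcription factor, 110.5 ± 5.55 CPM in the primary and 3.21 ± 2.35 CPM in the CG4 libraries. Aldoc went the other way, at 32.0 ± 0.949 CPM in the primary and 177.8 ± 68.6 CPM in the CG4 libraries. So did Fgfr3, at 9.97 ± 0.373 CPM in the primary and 73.3 ± 22.8 CPM in the CG4 libraries. Cd93 also marks endothelium, and 5 endothelial markers summed to 7.43 to 8.43 CPM in proliferating primary and 8.92 to 24.2 CPM in proliferating CG4 libraries, with 3 called higher in primary cells and 1 lower. The 6 neuron markers followed summed to 346.5 to 354.4 CPM in proliferating primary and 99.0 to 133.5 CPM in proliferating CG4 libraries, with 5 higher and 1 lower. The part of these other cell types in the results was not tested.

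**Figure D2:**
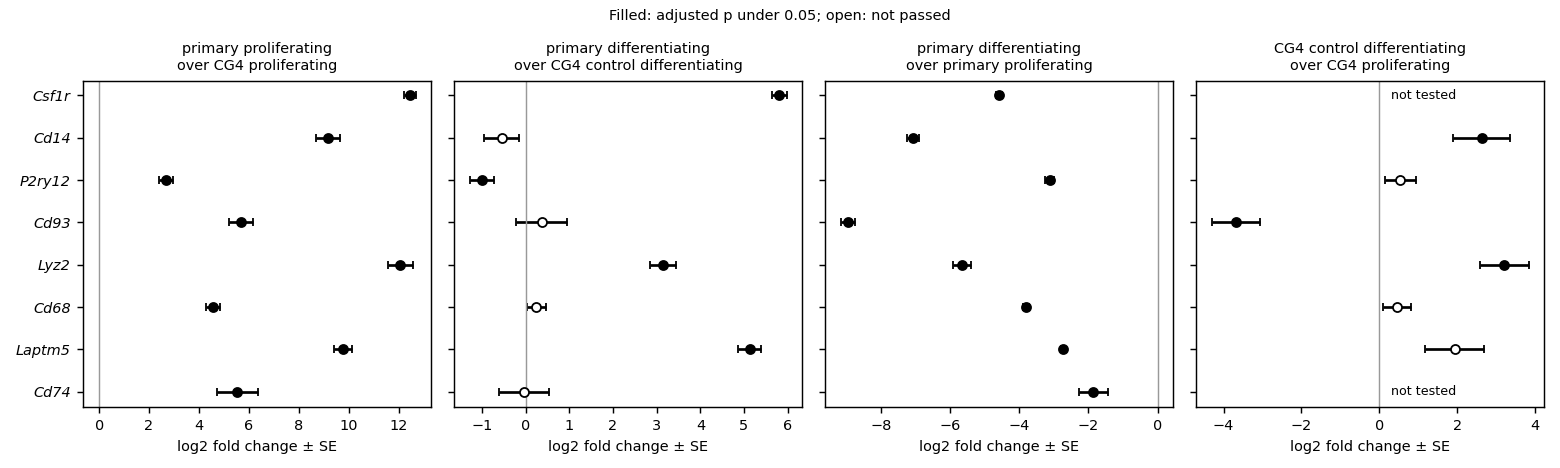
Log2 fold changes with standard errors of the 8 genes in 4 comparisons, with filled points for an adjusted p under 0.05 and open points for the rest. All 8 lie above 0 between proliferating primary and CG4 cells and below 0 between differentiating and proliferating primary cells, while the differentiating primary over CG4 control panel holds both signs.

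The same 8 genes fell in primary cells after 3 days of differentiation, and by very different amounts. Cd93 fell most, to 0.969, 1.69, 0.435 and 0.358 CPM in differentiating primary libraries, against the 446.0 to 489.5 CPM of proliferating ones. Its log2 fold change of -8.94 ± 0.20 (SE, adjusted p = 1.03e-11) was the 2nd largest fall of the 12310 genes tested, and it reached -10.13 without libraries 1 and 2. Cd14 fell to 0.657, 0.770, 0.145 and 0.307 CPM in differentiating primary libraries, with a log2 fold change of -7.06 ± 0.17 (SE, adjusted p = 1.78e-11), or -8.20 without libraries 1 and 2. For both genes libraries 1 and 2 lay above libraries 3 and 4.

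Lyz2 had 20.6, 18.9, 8.36 and 9.37 CPM in differentiating primary libraries, against 741.7 to 762.9 CPM in proliferating ones. Here too the first pair was the higher one, and the log2 fold change of -5.65 ± 0.25 (SE, adjusted p = 2.01e-09) was -6.36 without it. Csf1r had 16.4, 15.5, 12.3 and 13.2 CPM in differentiating primary libraries and fell by 4.58 ± 0.08 on the log2 scale (SE, adjusted p = 1.56e-12). Cd68 had 7.72, 7.12, 5.65 and 5.63 CPM and fell by 3.79 ± 0.08 (SE, adjusted p = 9.8e-12).

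P2ry12, Laptm5 and Cd74 kept the largest shares of their proliferating level. P2ry12 had 0.796, 0.885, 0.822 and 1.18 CPM in differentiating primary libraries, 11.4% of the proliferating mean, and a log2 fold change of -3.11 ± 0.13 (SE, adjusted p = 1.62e-09). Laptm5 had 18.9, 17.7, 18.2 and 16.3 CPM, which is 14.6% of that mean, and fell by 2.73 ± 0.05 on the log2 scale (SE, adjusted p = 2.87e-12). Cd74 had 0.0692, 0.115, 0.242 and 0.205 CPM, or 14 reads in all, and a log2 fold change of -1.85 ± 0.42 (SE, adjusted p = 0.00176). Its size depended on the pair left out, at -1.25 without libraries 1 and 2 and -2.50 without libraries 3 and 4. The share that remained was 27.1% for Cd74, 6.91% for Cd68, 4.04% for Csf1r, 1.89% for Lyz2, 0.674% for Cd14 and 0.184% for Cd93.

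In this comparison 8 of 8 genes passed as lower and none of the 8 overlapped between groups, where 43.3% of 12310 genes were called lower and 84.8% were called in either direction. Of the same 12310 genes 43.2% lay lower with no overlap between groups, 38.1% lay higher with none and 81.3% did not overlap in either direction. The median log2 fold change was -4.19 over the 8 genes and -0.02 over all genes.

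The proportions among the 8 genes were also compared, with each gene counted per read of Csf1r. Differentiating primary libraries held 0.0271 to 0.109 Cd93 reads per Csf1r read, against 1.25 to 1.39 in proliferating primary libraries. Cd14 had 0.0118 to 0.0495 in differentiating libraries, against 0.182 to 0.214 in proliferating ones. Lyz2 had 0.681 to 1.26 in differentiating libraries, against 2.10 to 2.14 in proliferating ones. For these 3 genes every differentiating library lay below every proliferating one. Laptm5 went the other way, with 1.14 to 1.48 reads per Csf1r read in differentiating libraries, against 0.325 to 0.357 in proliferating ones. So did Cd68, with 0.426 to 0.471 in differentiating libraries, against 0.252 to 0.277 in proliferating ones. P2ry12 had 0.0486 to 0.0891 in differentiating libraries, against 0.0207 to 0.0253 in proliferating ones, and Cd74 had 0.00423 to 0.0197 in differentiating libraries, against 0.00121 to 0.00259 in proliferating ones. None of the 7 ratios overlapped between the groups, and the ratios were not tested. Of 12309 genes set against Csf1r in this way 98.0% did not overlap, 97.5% being higher in differentiating libraries and 0.561% lower. The 4 higher ratios are thus like those of most genes. In differentiating primary cells Cd68, P2ry12, Cd74, Cd14 and Cd93 were not called higher than in CG4 controls, and which cells their reads come from was not tested.

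**Figure D3:**
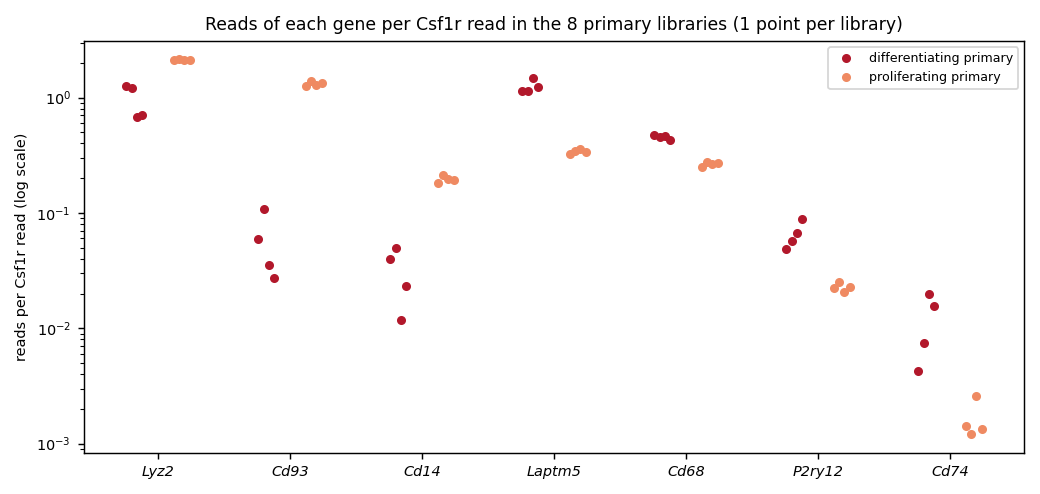
Reads of each of 7 genes per Csf1r read on a log scale, with 1 point for each of the 4 differentiating (left, dark) and 4 proliferating (right, light) primary libraries. Lyz2, Cd93 and Cd14 are lower in the differentiating libraries, and Laptm5, Cd68, P2ry12 and Cd74 are higher.

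The related lists mostly fell with them in primary cells. Of all 12310 genes tested there, 43.3% were called lower, 41.5% higher and 84.8% in either direction. All 7 named microglia and leukocyte genes fell, with a median log2 fold change of -2.81, among them Coro1a, an actin-binding protein of leukocytes, at -4.33 ± 0.09 and Fcer1g at -3.12 ± 0.05 on the log2 scale. C3 fell by 4.93 ± 0.08 and Tlr2 by 3.63 ± 0.08, with both complement and Fc receptor genes and 4 of 4 Toll-like and scavenger receptor genes lower. The 6 transcription factors and the 7 cytokine and activation genes were lower as well, such as Runx1 (-3.31 ± 0.13) and the chemokine Cxcl10 (-5.37 ± 0.27). Csf1 rose by 1.46 ± 0.25 (SE, adjusted p = 0.000241), at 31.9 ± 13.6 CPM (SD, n = 4) in differentiating and 12 ± 0.993 CPM (SD, n = 4) in proliferating primary cells. Its differentiating primary libraries ran from 20.0 to 44.1 CPM, so the size of the rise may depend on the libraries kept. Lysosome genes found in most cells moved in both directions, with 8 higher and 4 lower of 14. Of the other cell types, 3 of 4 fibroblast and pericyte genes were lower and 1 was higher, with sums of 12 to 22.2 CPM in differentiating and 126.3 to 154.3 CPM in proliferating primary libraries. Of 6 neuron markers 5 were lower and 1 higher, with sums of 216.4 to 225.6 CPM in differentiating and 346.5 to 354.4 CPM in proliferating primary libraries. Of 5 endothelial markers 3 were lower and 2 higher, with a median log2 fold change of -2.06, while their sums were 9.43 to 12.7 CPM in differentiating and 7.43 to 8.43 CPM in proliferating primary libraries. Oligodendroglia markers rose in 9 of 10 cases and fell in 1. Astrocyte markers summed to 1454 to 2626 CPM in differentiating and 315.4 to 338.9 CPM in proliferating primary libraries, with 6 higher and 1 lower of 8, and the part of these cell types was not tested.

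Between differentiating primary cells and CG4 control cells, 3 of the 8 genes were higher, 1 was lower and 4 did not pass, where 36.2% of 13207 genes were called higher, 36.8% lower and 73.0% in either direction. The median log2 fold change was 0.30 over the 8 genes and 0.00 over all genes. Csf1r had 16.4, 15.5, 12.3 and 13.2 CPM in differentiating primary libraries, against 0.223, 0.216, 0.197 and 0.361 CPM in CG4 controls, and a log2 fold change of 5.81 ± 0.17 (SE, adjusted p = 2.9e-12). The groups were well apart, at a ratio of means of 57.6, and the log2 fold change was 5.08 against the mean of the 3 differentiating CG4 groups. Laptm5 had 18.9, 17.7, 18.2 and 16.3 CPM in differentiating primary libraries, against 0.425, 0.891, 0.345 and 0.383 CPM in CG4 controls, and a log2 fold change of 5.13 ± 0.26 (SE, adjusted p = 5.03e-10). Lyz2 had 20.6, 18.9, 8.36 and 9.37 CPM in differentiating primary libraries, against 1.23, 1.75, 1.70 and 1.83 CPM in CG4 controls, and a log2 fold change of 3.14 ± 0.30 (SE, adjusted p = 2.87e-07). Without primary libraries 1 and 2 it was 2.43.

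P2ry12 was lower in differentiating primary cells, at 0.796, 0.885, 0.822 and 1.18 CPM, against 2.46, 1.46, 1.16 and 2.21 CPM in CG4 controls, with a log2 fold change of -1.0 ± 0.27 (SE, adjusted p = 0.00415). The ranges of the groups met at 1.18 and 1.16 CPM, and the call was lost without primary libraries 1 and 2 (adjusted p = 0.0532). Cd68 differed by 0.24 ± 0.22 (adjusted p = 0.342), with 5.63 to 7.72 CPM in differentiating primary and 3.56 to 8.43 CPM in CG4 control libraries. Cd14 differed by -0.55 ± 0.41 (adjusted p = 0.234), with 0.145 to 0.770 CPM in differentiating primary and 0.640 to 0.864 CPM in CG4 control libraries. That difference was -0.04 without primary libraries 3 and 4 (adjusted p = 0.946), and it passed as lower without primary libraries 1 and 2 (-1.68, adjusted p = 0.0197) and against the mean of the 3 differentiating CG4 groups (-1.48, adjusted p = 0.00179). Cd93 differed by 0.36 ± 0.58 (adjusted p = 0.59) and Cd74 by -0.04 ± 0.57 (adjusted p = 0.95). Without primary libraries 1 and 2 these were -0.82 for Cd93 and 0.52 for Cd74, and without libraries 3 and 4 they were 0.90 for Cd93 and -0.74 for Cd74. Cd68 passed as higher without CG4 control library 4 (0.52, adjusted p = 0.0231). Under library totals with no TMM scaling the median of all genes moved to -0.29, and 35.7% of the called genes were higher, against 49.6% with TMM.

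Of the related lists, 3 of 7 microglia and leukocyte genes were higher and 2 lower in differentiating primary cells than in CG4 controls. Of all genes 36.2% were called higher and 36.8% lower. Lcp1, an actin-bundling protein of leukocytes, was higher by 4.81 ± 0.57 and Fcer1g by 2.99 ± 0.12 on the log2 scale, while Plcg2, a phospholipase of immune cells, was lower by a log2 fold change of -1.16 ± 0.17. C3 was higher by 4.74 ± 0.17, at 12.3 ± 1.64 CPM (SD, n = 4) in differentiating primary cells and 0.455 ± 0.0947 CPM (SD, n = 4) in CG4 controls. Of 7 cytokine and activation genes 5 were higher, with Apoe at 4.62 ± 0.25. Of the 6 transcription factors 3 were lower and 3 did not pass, and the engulfment receptor Axl was lower by a log2 fold change of -4.06 ± 0.66, at 10.6 ± 1.83 CPM (SD, n = 4) in differentiating primary cells and 177.1 ± 72.9 CPM (SD, n = 4) in CG4 controls. Endothelial markers summed to 9.43 to 12.7 CPM in differentiating primary and 71.4 to 87.3 CPM in CG4 control libraries, with 4 of 5 lower. Of 8 astrocyte markers 5 were higher and 2 lower, with a median log2 fold change of 2.38 and sums of 1454 to 2626 CPM in differentiating primary and 2375 to 3737 CPM in CG4 control libraries. Of 10 oligodendroglia markers 8 were higher, with a median of 2.09 and sums of 89318 to 101354 CPM in differentiating primary and 12265 to 18840 CPM in CG4 control libraries. Of 6 neuron markers 2 were higher and 2 lower, and of 4 fibroblast and pericyte genes 1 was higher and 1 lower. The part of these cell types in the values of the 8 genes was not tested.

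Whether the gap between culture types depended on the condition was tested as an interaction. The primary minus CG4 difference was smaller in differentiating than in proliferating cells for 8 of 8 genes, where 33.8% of 13207 genes were called lower, 35.4% higher and 69.3% in either direction. The log2 interaction was -9.70 ± 0.61 for Cd14 (SE, adjusted p = 4.29e-09) and -8.93 ± 0.55 for Lyz2 (SE, adjusted p = 3.63e-09), the largest of the 8. It was smallest for P2ry12, at -3.68 ± 0.40 (SE, adjusted p = 1.15e-06). The median was -5.45 over the 8 genes and 0.03 over all genes. Without single proliferating CG4 libraries the size moved to -11.16 for Cd14 and -6.02 for Cd93 (library 1), -7.31 for Cd74 (library 2) and -9.57 for Lyz2 (library 3). Without differentiating primary libraries 1 and 2 it was -10.83 for Cd14, -9.63 for Lyz2 and -6.49 for Cd93, and without libraries 3 and 4 it was -6.30 for Cd74. Thinned counts gave -7.04 for Cd74. With library totals alone the median of all genes was -0.43, and 33.6% of the called genes were higher, against 51.2% with TMM. The interaction uses the same libraries as the comparisons above and is no independent evidence of them.

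In CG4 cells alone, these genes moved in both directions between proliferating cells and differentiating controls. The controls carried the GFP-only vector and the proliferating cells none, so effects of differentiation, vector and read length cannot be told apart. Control cells after differentiation were tested against proliferating CG4 cells for 6 of the 8 genes, since Csf1r and Cd74 had too few reads. Lyz2 and Cd14 rose, Cd93 fell, and 3 did not pass, where 32.5% of 12486 genes were called higher, 33.2% lower and 65.8% in either direction. Lyz2 had 1.23, 1.75, 1.70 and 1.83 CPM in differentiating control libraries, against 0.0241, 0.219 and 0.291 CPM in proliferating ones, and a log2 fold change of 3.21 ± 0.62 (SE, adjusted p = 0.00209), or 3.82 without proliferating library 3. Cd14 had 0.693, 0.864, 0.640 and 0.699 CPM in differentiating control libraries, against 0.265, 0 and 0.0728 CPM in proliferating ones, and a log2 fold change of 2.62 ± 0.74 (SE, adjusted p = 0.0139), or 4.09 without proliferating library 1.

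Cd93 had 0.961, 1.16, 0.271 and 0.428 CPM in differentiating control libraries, against 16.6, 5.41 and 5.80 CPM in proliferating CG4 libraries. Of the 6 genes tested in both culture types it is the one that was called lower in differentiating than in proliferating cells of both. Its log2 fold change in CG4 was -3.68 ± 0.61 (SE, adjusted p = 0.000984), or -2.96 without proliferating library 1. Laptm5 differed by 1.93 ± 0.76 (adjusted p = 0.0522) and passed with DESeq2 (adjusted p = 0.048) and with RLE scaling (adjusted p = 0.0486). Cd68 differed by 0.45 ± 0.35 (adjusted p = 0.282) and P2ry12 by 0.54 ± 0.39 (adjusted p = 0.25). The 2 untested genes are given as levels only. Csf1r had 0.197 to 0.361 CPM in differentiating control and 0.0243 to 0.0939 CPM in proliferating CG4 libraries, and Cd74 had 26 reads in the 4 control libraries and 1 read in the 3 proliferating ones. Of the related lists, 3 of 7 microglia and leukocyte genes were higher in controls and 2 lower. Higher too were 2 of 2 complement and Fc receptor, 4 of 4 Toll-like and scavenger receptor and 4 of 4 tested cytokine and activation genes. Of 6 transcription factors 4 were higher and 0 lower, and of 14 lysosome genes 12 were higher and 0 lower. Of all genes 32.5% were called higher and 33.2% lower.

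The introduced factors changed several of the genes at low levels. Both factor groups were set against the same 4 control libraries. With Zfp488, 2 of 8 genes (Csf1r and Cd74) rose and 6 did not pass, where 5.89% of 14811 genes were called higher and 9.04% in either direction. With Nkx2.2, 2 of 8 (Laptm5 and Cd14) rose and 1 (Cd93) fell, where 6.10% were called higher, 4.48% lower and 10.6% in either direction. The median log2 fold change of the 8 genes was -0.02 with Zfp488 and 0.93 with Nkx2.2, and over all genes it was -0.02 with Zfp488 and -0.01 with Nkx2.2. The fit with the replicate number as a block called 3576 genes for Zfp488, against 1339 without it, and 3876 genes for Nkx2.2, against 1567 without it.

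Csf1r had 0.397, 0.641, 0.447 and 0.795 CPM with Zfp488, against 0.223, 0.216, 0.197 and 0.361 CPM in controls. These are 11 to 26 reads per Zfp488 library and 8 to 16 per control library, and no Zfp488 library fell inside the control range. The log2 fold change was 1.20 ± 0.31 (SE, adjusted p = 0.0321), and the authors' deposited table gives 1.21 with an adjusted p of 0.049. The call was lost when control library 1, 2 or 3 or Zfp488 library 2 or 4 was left out (adjusted p = 0.0751 to 0.115) and in a fit of the 2 groups alone (adjusted p = 0.0541). With Nkx2.2, Csf1r had 0.454, 0.376, 0.644 and 0.589 CPM, again all above the controls, and a log2 fold change of 1.03 ± 0.31 (SE, adjusted p = 0.0537). It passed with the replicate block (adjusted p = 0.0191), without control library 4 (adjusted p = 0.0355) and without Zfp488 library 1 (adjusted p = 0.0495).

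Cd14 had 3.07, 2.23, 1.05 and 2.45 CPM with Nkx2.2, against 0.693, 0.864, 0.640 and 0.699 CPM in controls. Every Nkx2.2 library lay above every control library, and the log2 fold change was 1.62 ± 0.35 (SE, adjusted p = 0.0116). The authors' deposited table gives 1.63 with an adjusted p of 7.33e-05. With Zfp488, Cd14 had 0.722, 1.56, 1.76 and 2.29 CPM, of which library 1 lay inside the control range. Its log2 fold change of 1.15 ± 0.36 (SE) did not pass (adjusted p = 0.0661) but did with the replicate block (adjusted p = 0.0388), with DESeq2 (adjusted p = 0.0211), without Zfp488 library 1 (adjusted p = 0.0197) and without Nkx2.2 library 3 (adjusted p = 0.0303). For Cd14 with Zfp488 the authors' deposited table gives 1.15 with an adjusted p of 0.0136, so there it passes.

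Laptm5 had 1.49, 1.73, 0.678 and 1.86 CPM with Nkx2.2, against 0.425, 0.891, 0.345 and 0.383 CPM in controls. Nkx2.2 library 3 lay below the highest control, and the other 3 lay above all controls. The log2 fold change was 1.52 ± 0.36 (SE, adjusted p = 0.0172), and the call was lost without control library 1 or 4 or Nkx2.2 library 2 or 4 (adjusted p = 0.051 to 0.0584). With Zfp488 it was 0.09 ± 0.38 (adjusted p = 0.911), at 0.447 to 0.692 CPM.

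Cd93 had 0.403, 0.100, 0.0678 and 0.164 CPM with Nkx2.2, against 0.961, 1.16, 0.271 and 0.428 CPM in controls. Nkx2.2 library 1 lay above the lowest control, and the Nkx2.2 values rest on 16, 4, 2 and 5 reads. Its log2 fold change was -1.86 ± 0.54 (SE, adjusted p = 0.0462). The call was lost without control library 1 or 2, any 1 Zfp488 library, or Nkx2.2 library 2, 3 or 4 (adjusted p = 0.0559 to 0.139), in thinned counts (adjusted p = 0.0504) and in a fit of the 2 groups alone (adjusted p = 0.101). It stood at -2.62 without Nkx2.2 library 1. With Zfp488, Cd93 had 0.289 to 0.459 CPM and a log2 fold change of -0.76 ± 0.49 (adjusted p = 0.375).

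Cd74 had 0.578, 0.769, 0.384 and 0.581 CPM with Zfp488, against 0.112, 0.0540, 0.148 and 0.293 CPM in controls, which hold 2 to 13 reads each. The groups did not overlap, and the log2 fold change was 1.90 ± 0.51 (SE, adjusted p = 0.0377). The call was lost without control library 1, 2 or 3, Zfp488 library 1, 2 or 4 or Nkx2.2 library 2 (adjusted p = 0.0525 to 0.114). With Nkx2.2 the log2 fold change was 1.34 ± 0.53 (adjusted p = 0.13), at 0.102 to 0.654 CPM, and it passed without Nkx2.2 library 3 (1.63, adjusted p = 0.0325). P2ry12 had 5.75, 2.75, 1.09 and 3.21 CPM with Nkx2.2, against 2.46, 1.46, 1.16 and 2.21 CPM in controls, at a log2 fold change of 0.83 ± 0.42 (adjusted p = 0.242). It passed without Nkx2.2 library 3 (1.11, adjusted p = 0.0467). The same library was the lowest of its group for Laptm5, Cd14, P2ry12 and Cd74. Lyz2 and Cd68 passed with neither factor.

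**Figure D4:**
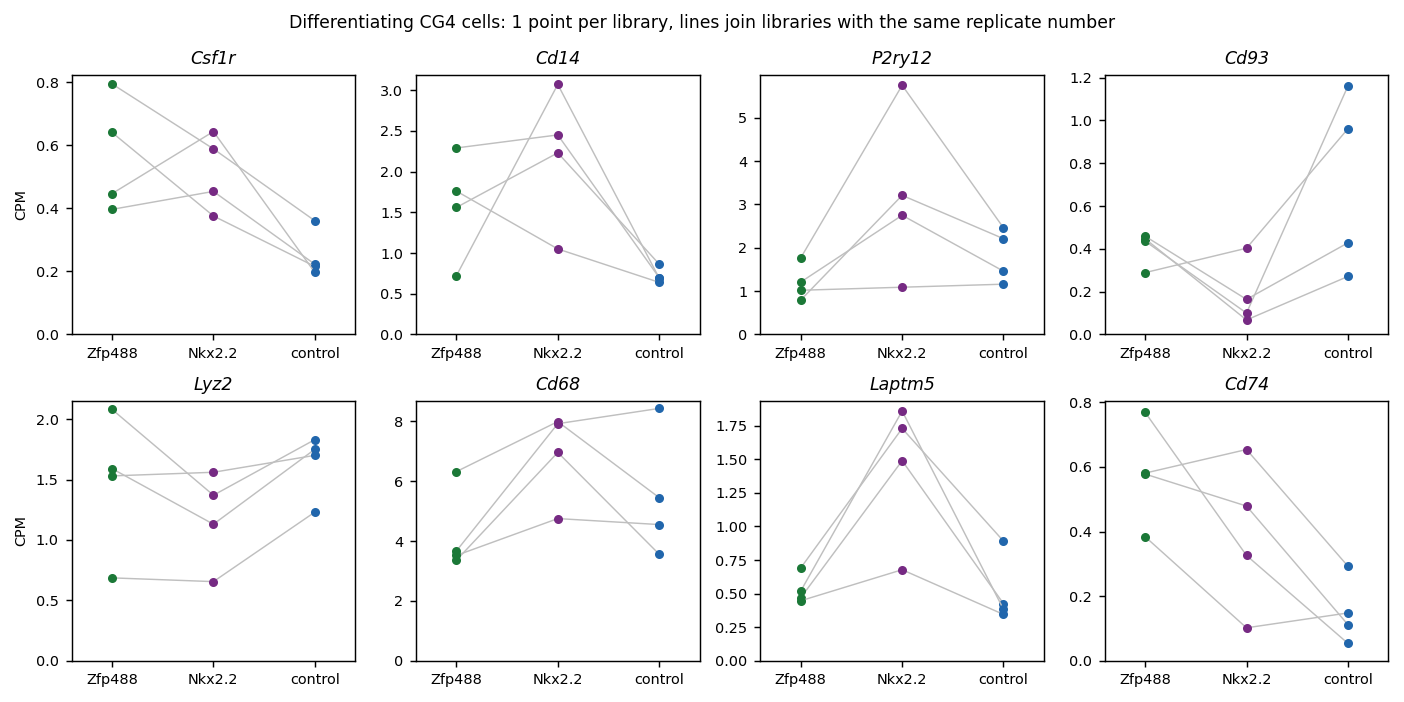
CPM on a linear scale for the 8 genes in the 12 differentiating CG4 libraries, with Zfp488 and Nkx2.2 left of the GFP-only control and lines joining libraries of the same replicate number. Csf1r is above the controls in both factor groups, Cd14 and 3 of 4 Laptm5 values are above them with Nkx2.2, and Cd74 is above them with Zfp488.

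Among related genes, Nkx2.2 libraries differed from controls at Spp1, the secreted phosphoprotein osteopontin, with a log2 fold change of 3.81 ± 0.42 (SE, adjusted p = 0.000152), at Cxcl10 (3.01 ± 0.29) and at Apoe (2.43 ± 0.20). These 3 were the ones called of 7 cytokine and activation genes, where 6.10% of all genes were called higher. Of 7 myeloid transcription factors 3 rose with Nkx2.2, Runx1 (1.37 ± 0.34), Mef2c (1.23 ± 0.36) and Cebpb (0.80 ± 0.12), and 1 fell. C3 rose by 0.92 ± 0.23 and Csf1 by 0.59 ± 0.16 with Nkx2.2. Of the 7 microglia and leukocyte genes 0 passed with Nkx2.2 in edgeR's test, 1 had an unadjusted p under 0.05 and 1 passed with DESeq2. With Zfp488, where 5.89% of all genes were called higher, 2 of 7 cytokine and activation genes rose, the chemokine Ccl2 by 2.22 ± 0.33 and Cxcl10 by 1.43 ± 0.31. Of the 7 microglia and leukocyte genes Bin2 rose (1.06 ± 0.28) and Lyn, a signalling kinase of leukocytes and other cells, fell (-0.71 ± 0.19). Of the 7 myeloid transcription factors, Mef2c (1.83 ± 0.36) and Cebpb (0.49 ± 0.12) rose with Zfp488. The engulfment receptor Mertk rose with both factors, by 0.78 ± 0.13 with Zfp488 and 0.50 ± 0.13 with Nkx2.2. Of 4 fibroblast and pericyte genes, Col3a1 (5.51 ± 0.77) and Fn1 (1.97 ± 0.48) rose with Zfp488 and Fn1 (3.39 ± 0.50) with Nkx2.2, and the part of such cells in these results was not tested.

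Order of levels, set by group means, showed where the 8 genes part ways. How many of all genes stand apart in this way was computed only between differentiating and proliferating primary cells. Proliferating primary cells came first for all 8, and stood apart from the next group for all but Cd74. Differentiating primary cells came second for Csf1r, Lyz2 and Laptm5 and stood apart from every CG4 group below them. For Cd68 and Cd14 the second place was held by CG4 cells with Nkx2.2, and neighbouring groups below it overlapped throughout. For P2ry12 the differentiating primary cells had the lowest mean of the 6 groups, with 0.920 ± 0.176 CPM (SD, n = 4), though each pair of neighbours below proliferating primary cells overlapped. For Cd93 the proliferating CG4 cells came second, at 9.26 ± 6.33 CPM (SD, n = 3), apart from differentiating primary cells below them. For Cd74 the Zfp488 group stood next to proliferating primary cells, at 0.578 ± 0.158 CPM (SD, n = 4) with Zfp488 and 0.582 ± 0.230 CPM (SD, n = 4) in proliferating primary cells.

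Likeness of other genes to the mean pattern of the 8 was measured as the root mean square difference of centred log2 CPM, over all 23 libraries, which share the contrast between culture types. The nearest named genes were Rasa4 (0.58), Fermt3 (0.60), Slc11a1 (0.65), Cxcl16 (0.65), Fgr (0.68) and Fcer1g (0.74). Fermt3 is an integrin activator of blood cells, Slc11a1 a metal transporter of macrophage vesicles and Fgr a kinase of myeloid cells. C3 lay nearest to both Csf1r (0.56) and Lyz2 (0.78). The integrin subunit gene Itgal lay nearest to Laptm5 (0.59), Tmem173, which encodes the DNA-sensing adaptor STING, to Cd14 (0.96), and Abcc3 to P2ry12 (0.42). Cd93 had no close partner, with Tbxas1 nearest at 1.99. Of the 50 identifiers nearest to the mean profile, 41 carried no name, which is 82.0%, against 3.2% of the 11484 genes compared, so what most of the nearest genes are is not known here. Among the 8 genes themselves, the closest pairs were Cd68 with P2ry12 (0.90) and Lyz2 with Csf1r (0.92).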

How the data were processed

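RNA-seq counts of 23 libraries were used. The raw counts per gene were deposited by the authors, 1 library per file. Per the submitters' processing notes, the tools were Subread 1.5.2 (featureCounts), STAR 2.5.2b and Trimmomatic 0.36, on build rn6. No source used here states their parameters, the annotation release or the strand setting, and levels of overlapping or near-identical genes are uncertain for that reason. For each factor the authors deposited a table with log2 fold changes, p-values and adjusted p-values, and a signal that by the values is a count divided by 1 size factor per library. Those tables gave gene names and the values credited to them. Files of differentiating CG4 cells list 32552 genes and the others 15219. The genes listed only in the former held 8.24% to 10.5% of their counts. A name was given for 12432 of the 15219, which left 2787 unnamed.

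The tests on counts were run with edgeR 4.0.16 under R 4.3.3 (quasi-likelihood, TMM, filterByExpr at a minimum count of 10, two-sided, Benjamini-Hochberg over all genes tested, threshold 0.05). One fit held the primary, control and proliferating CG4 libraries, 1 the 8 primary, 1 the 7 control and proliferating CG4, and 1 the 12 differentiating CG4 libraries. CPM used totals over the genes listed in every file with TMM over 23 libraries, and log2 CPM a prior count of 2. Standard errors are the log2 fold change over the root of the F statistic. Titles call the libraries biological replicates. A p-value here reflects nothing but the spread among them. No 2 libraries of a group were alike within counting noise, with a chi-square per degree of freedom of 1.74 to 254. It was 2.11 to 4.33 among proliferating primary libraries, 1.74 between differentiating primary libraries 3 and 4, and 21.9 to 254 within CG4 groups. Primary libraries thus varied little, and the labels do not say whether they came from separate cell preparations. Small standard errors in primary cells rest on that narrow spread. Intervals and floors cover counting error only.

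Same-numbered differentiating CG4 libraries deviated together (correlations of 0.145 to 0.672), so their numbers pair them, from the data and not the labels. Alternatives were RLE factors, library totals, no filter, DESeq2 1.42.0, thinned counts, other libraries or genes in the fit, the replicate block, and each library left out. The fits that leave out a pair of differentiating primary libraries were chosen after seeing the data. Members and lists were chosen with earlier results of these data known. The 8 genes were always named, with up to 4 genes per list by smallest adjusted p in either culture comparison, a fixed panel, and the nearest patterns. Further genes of those lists (Lcp1, Lyn, Runx1, Ccl2, Cxcl10, Mef2c, Cebpb, Gja1, Sox9, Aldoc, Fgfr3, Col3a1 and Fn1) were chosen after their values were seen. Some genes of the lists are counted but not reported by name here. Scripts were tested on simulated data. Promoters came from RefSeq's table for GRCr8.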

Additional observations from a re-analysis of the deposited data

Results flagged for a closer look

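For all 8 genes the difference between differentiating and proliferating cells was itself different between primary and CG4 cells. This was tested by the interaction term of edgeR's quasi-likelihood fit, in which vector and read length go with the CG4 groups. The log2 values, primary minus CG4 and differentiating minus proliferating, were -8.93 for Lyz2, -4.31 for Cd68, -4.63 for Laptm5, -6.63 for Csf1r, -9.70 for Cd14, -3.68 for P2ry12, -5.31 for Cd93 and -5.58 for Cd74, with adjusted p from 1.07e-09 (Csf1r) to 0.000266 (Cd74).

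In 5 of 40 sets of 4 libraries, 1 library stood far from the other 3, where chance flags about 1 in 20. The highest values were Cd68 in Zfp488 library 1 (6.32 CPM), Laptm5 in control library 2 (0.891 CPM), Csf1r in control library 4 (0.361 CPM) and Cd74 in proliferating primary library 3 (0.923 CPM). The lowest was Cd93 in Zfp488 library 1 (0.289 CPM).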

How the results depend on the processing

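Over 54 gene results and 1054 alternative values, 994 kept direction and side of the threshold, 16 passed where the main value had not, 30 no longer passed and 14 changed sign. The 8 falls in primary cells, the 8 higher values in proliferating primary cells and the 8 interactions kept their calls in every alternative. Changes of sign were all of values that had not passed. Between differentiating primary and control CG4 cells, Cd68 was -0.05 with library totals, Cd93 was -0.82 without primary libraries 1 and 2 and -0.17 to 0.67 with 1 library left out, and Cd74 was 0.02 with DESeq2, 0.02 with the replicate block, 0.52 without primary libraries 1 and 2 and -0.32 to 0.48 with 1 library left out. With Zfp488, Lyz2 was -0.33 to 0.10 and Laptm5 -0.07 to 0.49 with 1 library left out, and Laptm5 was -0.06 in thinned counts. Of the 8 genes, 7 were called between differentiating primary cells and the mean of the 3 differentiating CG4 groups, against 4 with the control alone. For CG4 differentiation 5 were called with no filter, against 3. For Zfp488 1 was called in a fit of the 2 groups alone, against 2, and 0 to 3 with 1 library left out. For Nkx2.2 1 to 4 were called with 1 library left out, against 3. The cause of these changes was not tested. The summed level in proliferating primary cells was 2131 CPM with library totals, against 1873 CPM. Over all genes, Zfp488 gave 2136 calls with DESeq2 and 3576 with the replicate block, against 1339, and 458 to 877 without control library 1, 2 or 3 or Zfp488 library 2 or 4. Nkx2.2 gave 3876 with the replicate block, against 1567, and 924 without Nkx2.2 library 4 and 974 without library 2. In these paired groups the block changed the call of Cd14 with Zfp488 and Csf1r with Nkx2.2 and no other call of the 8 genes. Numbers of the other groups share only a number (correlations of -0.182 to 0.071), and with that block Cd14 in CG4 differentiation had an adjusted p of 0.056. Depth limits Cd74, Csf1r, Cd14 and Laptm5 in proliferating CG4 cells, where a library holds 0 to 11 of their reads.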
